A study of Mus musculus with 6 samples.

Results

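The epidermal differentiation complex is a block of neighbouring genes on mouse chromosome 3 whose products build and regulate the outer layers of the skin. The sites described here are all Grhl3 peaks whose centre lies between positions 90200000 and 93700000 of chromosome 3 in the mm9 build, a window of 3.5 Mb. A peak belongs to the set by its position, whatever its score, and the window itself was picked with earlier results of these data known. Of 34098 peaks in the 4 deposited lists, 18 lie in the window. E16.5 replicate 1 gave 7 of its 11619 peaks, E16.5 replicate 2 gave 8 of 9685, the depilation list gave 3 of 4820 and the imiquimod list gave 0 of 7974.

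Binding was measured by chromatin immunoprecipitation and sequencing (ChIP-seq) with a custom-made antibody to Grhl3. The 2 E16.5 libraries came from whole back skin of E16.5 embryos. The depilation library came from epidermis of adult mice at day 4 of a depilation (hair removal) experiment, and the imiquimod library from epidermis of adult mice in an experiment with imiquimod, a Toll-like receptor agonist that causes psoriasis-like inflammation on skin. Adult epidermis was separated from dermis with dispase, so tissue, age and treatment all differ between the embryonic and adult libraries. The labels give no genotype, strain, sex or number of animals, no dose or duration of imiquimod, and no untreated adult Grhl3 library. Whether separate animals were used for the E16.5 replicates is not stated. The 2 input libraries, 1 embryonic and 1 adult, were not analysed here.

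Grhl3, a DNA-binding transcription factor and a mammalian relative of fly grainyhead, is needed for formation of the epidermal barrier. Late in differentiation, keratinocytes assemble the cornified envelope, a shell of cross-linked proteins under the cell membrane, and many of its components are encoded in this complex. The genes are switched on in order as cells move outward, and several of them also respond to wounding and inflammation of adult skin.

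The complex holds 4 gene families and several single genes. In the RefSeq annotation of GRCm38.p6, 70 protein-coding genes lie from S100a1 to S100a10, of which 15 are S100 genes, 14 Sprr genes, 21 Lce genes and 7 genes of the fused type. S100 proteins are small calcium-binding proteins, and S100a8 and S100a9 together form calprotectin, an antimicrobial complex of inflamed skin. Lor (loricrin) and Ivl (involucrin) are structural proteins of the cornified envelope. The small proline-rich proteins (Sprr1a, Sprr1b, Sprr2a1, Sprr2d and Sprr3 among them) cross-link it. The late cornified envelope proteins (Lce1a1, Lce1b and Lce3a among them) are added to it last. Of the fused type, Flg (filaggrin) aggregates keratin filaments and is broken down to moisture-retaining amino acids, and Flg2, Hrnr and Rptn are related proteins of the outer layers. The order along the chromosome is S100 genes, then Lor, Sprr, Ivl, Lce and the fused type, with S100a11 and S100a10 at the far end. This annotation is of another build than the peaks, so no peak was assigned to a gene here, and that the mm9 window holds the complex was taken from its definition.

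Promoters of the complex were searched for the core of the grainyhead consensus because Grhl3 binds DNA through it. The window was the 300 bases from 250 before to 50 after each gene's start, and RefSeq sequences (GRCm38.p6) matched all 17 genes of the list used here, which are S100a7a, another S100 gene, and the genes S100a8 to Rptn whose roles are given above. A gene was counted if any of its promoter windows held the motif. AACCGGTT, which reads the same on both strands, was found for 0 of the 17 genes and 47 of 27025 in the table (0.174%). With any base at the fifth position, the motif is AACCNGTT, whose other strand reads AACNGGTT. It was found for 2 of 17 listed genes, S100a9 and Rptn, and for 634 of all 27025 genes (2.35%). This looser motif includes AACCGGTT. Among all 62 genes of the complex with a promoter in the table, 3 held it (4.84%), and the third was S100a3. Matches were in 0 of 14 Sprr and 0 of 20 Lce genes with a promoter there. No interval was computed for any of these counts. With so few genes and so rare a motif, they show neither a lack nor an excess of it. The 3 matches are shown in lower case with the motif in capitals, on the strand of the gene, since they are the only promoters of the complex in the table with this motif.
S100a9 (GRCm38.p6, chr3:90695861-90695920, minus strand): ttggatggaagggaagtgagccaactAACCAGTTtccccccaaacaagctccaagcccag
Rptn (GRCm38.p6, chr3:93393476-93393535, plus strand): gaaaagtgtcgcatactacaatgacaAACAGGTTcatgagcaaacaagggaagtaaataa
S100a3 (GRCm38.p6, chr3:90588424-90588483, plus strand): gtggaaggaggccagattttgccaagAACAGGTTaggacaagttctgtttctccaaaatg
The motif begins 173 bases before the start of S100a9, 197 before that of Rptn and 113 before that of S100a3. These positions are not comparable with those of the peaks, which are on mm9. A match of letters is a description and was not tested as a binding site.

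The 18 peaks of the window fell into 13 separate regions when peaks of any list that overlapped or touched were merged. Of these, 10 carried a peak in 1 list, 2 in both E16.5 replicates and 1 in both E16.5 replicates and the depilation list. No region carried a peak in all 4. Across the genome, 79.1% of 24995 merged regions were in 1 list, 11.2% in 2 and 6.72% in 3, and 751 regions were in all 4. These shares cover any combination of lists. The combination of both E16.5 replicates and depilation without imiquimod was found in 678 regions (2.71%), and in 23 of 1457 on chromosome 3. An adult peak was in 2 of the 13 regions, or 15.4% (exact 95% binomial interval 1.92 to 45.4%), against 44.9% of the 24995 merged regions of the genome. The interval includes 44.9%. The genome share counts imiquimod peaks too, of which the window has 0, so the contrast partly restates the empty imiquimod list. Without E16.5 replicate 1, merging gave 10 regions, and without replicate 2 it gave 8. Without replicate 1, the region shared with depilation split, since the wide replicate 1 peak no longer joined the 2 depilation peaks there. With either replicate left out, 1 region had peaks in more than 1 list. That 0 had peaks in 3 was certain, since only 2 lists with peaks in the window were left.

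**Figure D1:**
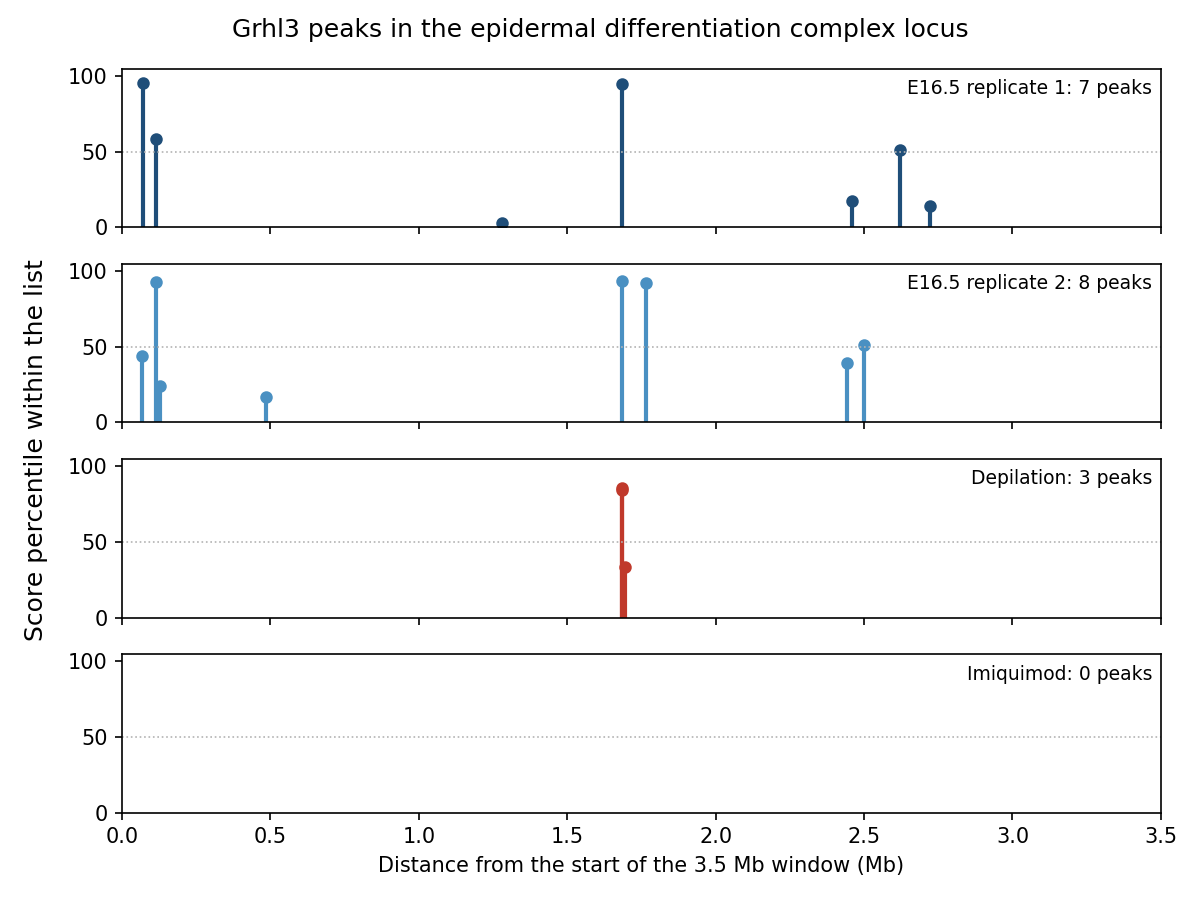
Position and score percentile of every Grhl3 peak in the window, by list. The x axis is the distance from the start of the window in Mb and the y axis the percentile of the peak's score within its own list, with a dotted line at 50. The E16.5 peaks are spread between 0.0687 and 2.72 Mb, the 3 depilation peaks stand close together between 1.68 and 1.69 Mb, and the imiquimod panel is empty.

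The region in 3 lists lay at 91884347 to 91885765 on chromosome 3, about the middle of the window. E16.5 replicate 1 had a peak of 1419 bp there with a score of 184.68, at percentile 94.8 of its list (the percentile is the rank of the score within the list, with 100 the best). E16.5 replicate 2 had a peak of 658 bp at 91884843 to 91885500, with a score of 132.75 and percentile 93.67, the best of that list in the window. All of its 658 bp lay within the replicate 1 peak. By score on chromosome 3, the peak ranked 26 among 620 in replicate 1 and 26 among 505 in replicate 2.

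Depilated epidermis showed 2 peaks within the same region, separated by 89 bp. The first, at 91884491 to 91884781, was 291 bp wide and scored 89.13 (percentile 84.6). The second, at 91884871 to 91885149, was 279 bp wide and scored 91.30 (percentile 85.8), the best depilation score in the window and number 31 among 273 on chromosome 3. All 279 bp of the second peak lay within the E16.5 replicate 2 peak, and 0 bp of the first did. The second peak, which alone was common to all 3 libraries, had its centre 46 bp before that of the replicate 1 peak. Scores come from separate libraries and were compared only as ranks within a list.

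**Figure D2:**
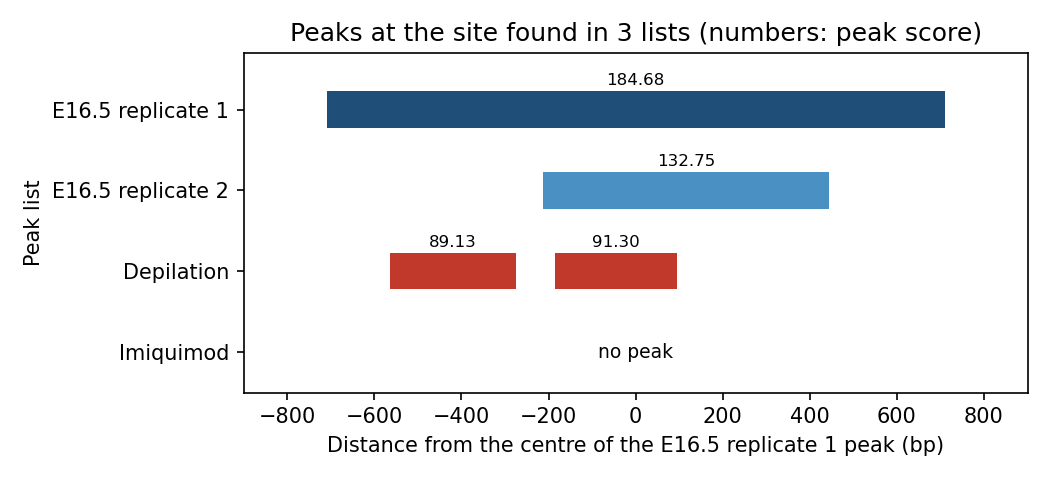
Extent of the peaks at the region found in 3 lists. The x axis is the distance in bp from the centre of the E16.5 replicate 1 peak, bars span each peak from start to end, and numbers above them are peak scores. The replicate 1 bar of 1419 bp contains the replicate 2 bar and both depilation bars, and the imiquimod list has no peak there.

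The remaining depilation peak lay 7.08 kb beyond this region, at 91892847 to 91893045. It scored 56.26 (percentile 33.2) and was found in no other list. All 3 depilation peaks of the window thus lay between 91884491 and 91893045. Of these 3, 2 were overlapped by an E16.5 replicate 1 peak, against 50.6% of all depilation peaks, and 1 by a replicate 2 peak, against 34.1%. With 3 peaks, these counts cannot be distinguished from the shares over the whole list. The exact 95% binomial (Clopper-Pearson) interval of 2 in 3 ran from 9.43 to 99.2%. It treats the peaks as independent, though both of the 2 lay in the same replicate 1 peak and so mark 1 shared region.

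The other 2 regions shared by the E16.5 replicates lay near the start of the window, on the side of the adjoining sequence that is rich in peaks. At 90268498 to 90269674, replicate 1 had its best score of the window, 188.53 (percentile 95.2), over 1177 bp. Replicate 2 had a peak of 120 bp inside it, at 90268654 to 90268773, with a score of 61.06 (percentile 43.7). At 90312823 to 90313246 the order was the other way round. Replicate 2 scored 128.73 there (percentile 93.0) over 251 bp, and replicate 1 scored 76.79 (percentile 58.7) over 424 bp. The replicates thus ranked these 2 regions in opposite order, and both ranked the region at 91884347 high.

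Both adult lists lacked these 2 regions. A replicate 2 peak overlapped 3 of the 7 replicate 1 peaks in the window, against 32.5% of all replicate 1 peaks, and a depilation peak 1 of the 7, against 19.1%. Replicate 1 peaks overlapped 3 of the 8 in replicate 2, against 41.7% of all, and depilation peaks 1 of the 8, against 16.2%. Exact intervals were wide, from 9.90 to 81.6% for 3 of 7 and from 8.52 to 75.5% for 3 of 8, and include the shares over the whole lists. An imiquimod peak overlapped 0 of the 7, 0 of the 8 and 0 of the 3 depilation peaks. Over the whole lists, imiquimod peaks overlapped 18.3% of replicate 1, 15.6% of replicate 2 and 26.2% of depilation peaks. Since the imiquimod list has no peak in the window, these 3 counts could only be 0 and add nothing to that fact.

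The 4 replicate 1 peaks missing from replicate 2 scored at most 69.75, and the lowest score of the whole list was 50.01. They lay at 91480086 to 91480324 (score 50.65, percentile 2.75), 92658893 to 92659140 (53.85, percentile 17.5), 92822066 to 92822456 (69.75, percentile 50.8) and 92920368 to 92920708 (53.10, percentile 14.3). Their scores were all below those of the 3 replicate 1 peaks that recurred.

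The 5 replicate 2 peaks missing from replicate 1 were more mixed. The peak at 91966872 to 91966949 was only 78 bp wide but scored 126.79, percentile 92.5, close behind the best 2 of that list in the window. The other 4 lay at 90326719 to 90326973 (score 55.39, percentile 24.2), 90683382 to 90683577 (53.49, percentile 16.8), 92642473 to 92642641 (59.49, percentile 39.4) and 92699112 to 92699288 (64.54, percentile 51.3). Replicate 1 had no peak at any of these 5 places, the high-scoring one included.

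Scores of the window's peaks ran from near the bottom to near the top of their lists. The median percentile was 50.8 in replicate 1 (2.75 to 95.2), 47.5 in replicate 2 (16.8 to 93.67) and 84.6 after depilation (33.2 to 85.8), against about 50 over a whole list by construction. The median width was 391 bp in replicate 1, 186.5 bp in replicate 2 and 279 bp after depilation, against 445, 232 and 204.5 bp over the whole lists. The depilation medians rest on 3 peaks, 2 of them in 1 region.

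For description, regions were put into groups by their distance along the window. Joining regions less than 250 kb apart gave 3 groups and 2 single regions. The first group, at 90268498 to 90326973, held 3 regions in 58.5 kb, 2 of them in both replicates. The second, at 91884347 to 91966949, held 3 in 82.6 kb, among them the region in 3 lists. The last, at 92642473 to 92920708, held 5 regions in 278.2 kb, and each of these 5 was in a single E16.5 library, 3 in replicate 1 and 2 in replicate 2. The single regions were those at 90683382 and 91480086. Of 14 bins of 250 kb, 7 held a region and 7 held none. Groups and bins were not counted for the rest of chromosome 3, so they do not show a clustering particular to the window.

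Between and beyond these groups lay long stretches without a peak in any list. The longest ran from 92920709 to 94167342, 1.25 Mb, of which 0.779 Mb lay inside the window, and it was the longest such stretch on chromosome 3 among 1456. The stretch from 90683578 to 91480085, 0.797 Mb long, was exceeded by 2 on the chromosome. The median stretch on chromosome 3 was 0.0718 Mb. On all autosomes together, 16 stretches were longer than 1.25 Mb.

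Peak density in the window was below that of the rest of chromosome 3 in each list, though not beyond counting error in each, and the order turned in 3 lists when the 1000 best scoring peaks alone were counted. The rest was the span from the first to the last peak of any list, 155.6 Mb in all, without the window. E16.5 replicate 1 had 2 peaks per Mb in the window (7 peaks, exact 95% Poisson interval 2.81 to 14.4) and 4.03 elsewhere, where 14.1 would fall in a window of this length. The ratio of densities was 0.496 (95% interval 0.199 to 1.03). Replicate 2 had 2.29 peaks per Mb (8 peaks, interval 3.45 to 15.8) and 3.27 elsewhere, a ratio of 0.699 (0.300 to 1.39). The depilation list had 0.857 per Mb (3 peaks, interval 0.619 to 8.77) and 1.78 elsewhere, a ratio of 0.483 (0.0989 to 1.43). The intervals of these 3 ratios include 1. With all other autosomes in place of the rest of chromosome 3, the replicate 1 ratio was 0.416 (0.167 to 0.858), an interval below 1, while those of replicate 2 (0.573, 0.247 to 1.13) and depilation (0.431, 0.0888 to 1.26) still included it.

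In the imiquimod list the window was empty while the rest of the chromosome held 489 peaks, 3.22 per Mb, at which density 11.3 would fall in the window. The interval of 0 peaks reached 3.69 and that of the density ratio 0.329. All intervals cover counting error only and treat peaks as independent, which neighbouring peaks are not. The lists hold only peaks above each list's threshold, so a lack of peaks is not a measured lack of binding. Imiquimod scores run from 52.35 to 249.45, whereas the other lists start at 50 to 50.01 and reach 1588.8 to 3100. Imiquimod false discovery rates go up to 10%, and the other lists give none. Whether the lists were called alike is not stated. With 1 imiquimod library there is no replicate check of this result.

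**Figure D3:**
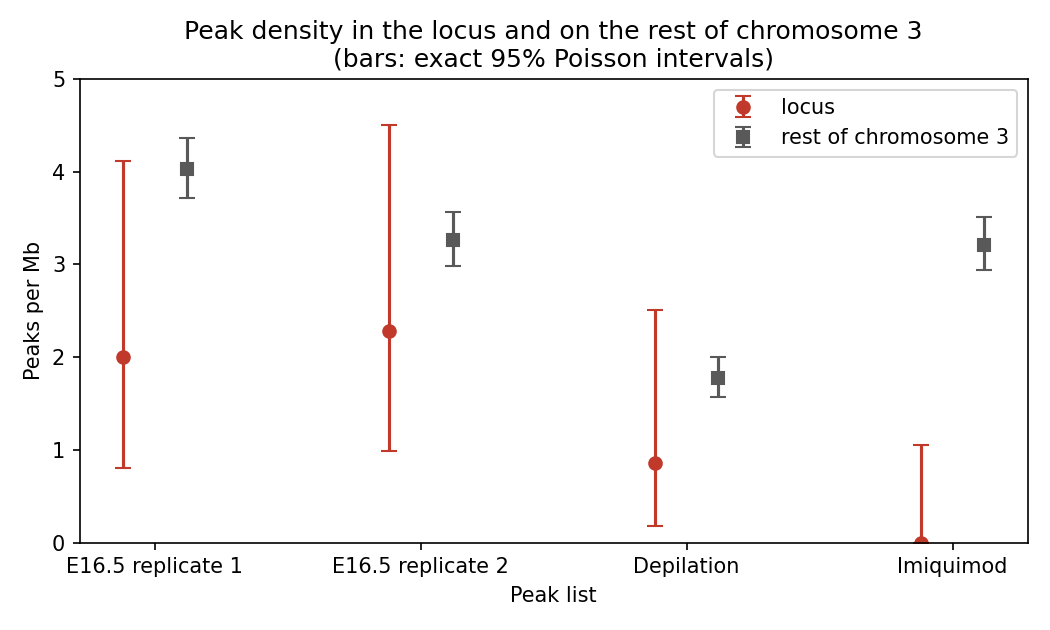
Peaks per Mb in the window (red) and on the rest of chromosome 3 (grey) for each list, with exact 95% Poisson intervals as bars. With all peaks counted, the window lies below the rest in each list (with the 1000 best scoring peaks, above it in 3), and in the imiquimod list its interval ends at 1.05 per Mb, below the 3.22 per Mb of the rest.

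Among the 1000 best scoring peaks of each list, the window held 2 of 41 on chromosome 3 in replicate 1, 3 of 49 in replicate 2 and 2 of 42 after depilation, where the density elsewhere would give 0.898, 1.06 and 0.921. The ratios then were 2.23 (0.261 to 8.61), 2.83 (0.564 to 8.82) and 2.17 (0.254 to 8.38), with intervals that include 1. Of the 1000 best imiquimod peaks, 45 were on chromosome 3 and 0 in the window, where the density elsewhere would give 1.04. The ratio of 0 had an interval up to 3.71, which also includes 1.

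Against other windows of 3.5 Mb on chromosome 3, laid end to end from the window on both sides, the empty imiquimod window stood alone. Of 42 other windows, 0 (0%) held as few imiquimod peaks, and they held 5 to 23 with a median of 11. The windows between 79700000 and 90200000, just before the locus, held 6, 7 and 6 imiquimod peaks. The window just after it held 6. All of these are below that median, so low imiquimod counts were not confined to the locus. As few or fewer peaks than in the window were found in 6 of 42 for replicate 1 (14.3%), 9 for replicate 2 (21.4%) and 6 for depilation (14.3%). Their medians were 13, 11.5 and 6.5 peaks. The sum over the 4 lists was 18 in the window, below that of each of the 42 others, whose median was 43. On all autosomes, 1 of 679 windows of this length was without an imiquimod peak, on chromosome 7, in a tiling that began at the first peak of each chromosome.

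**Figure D4:**
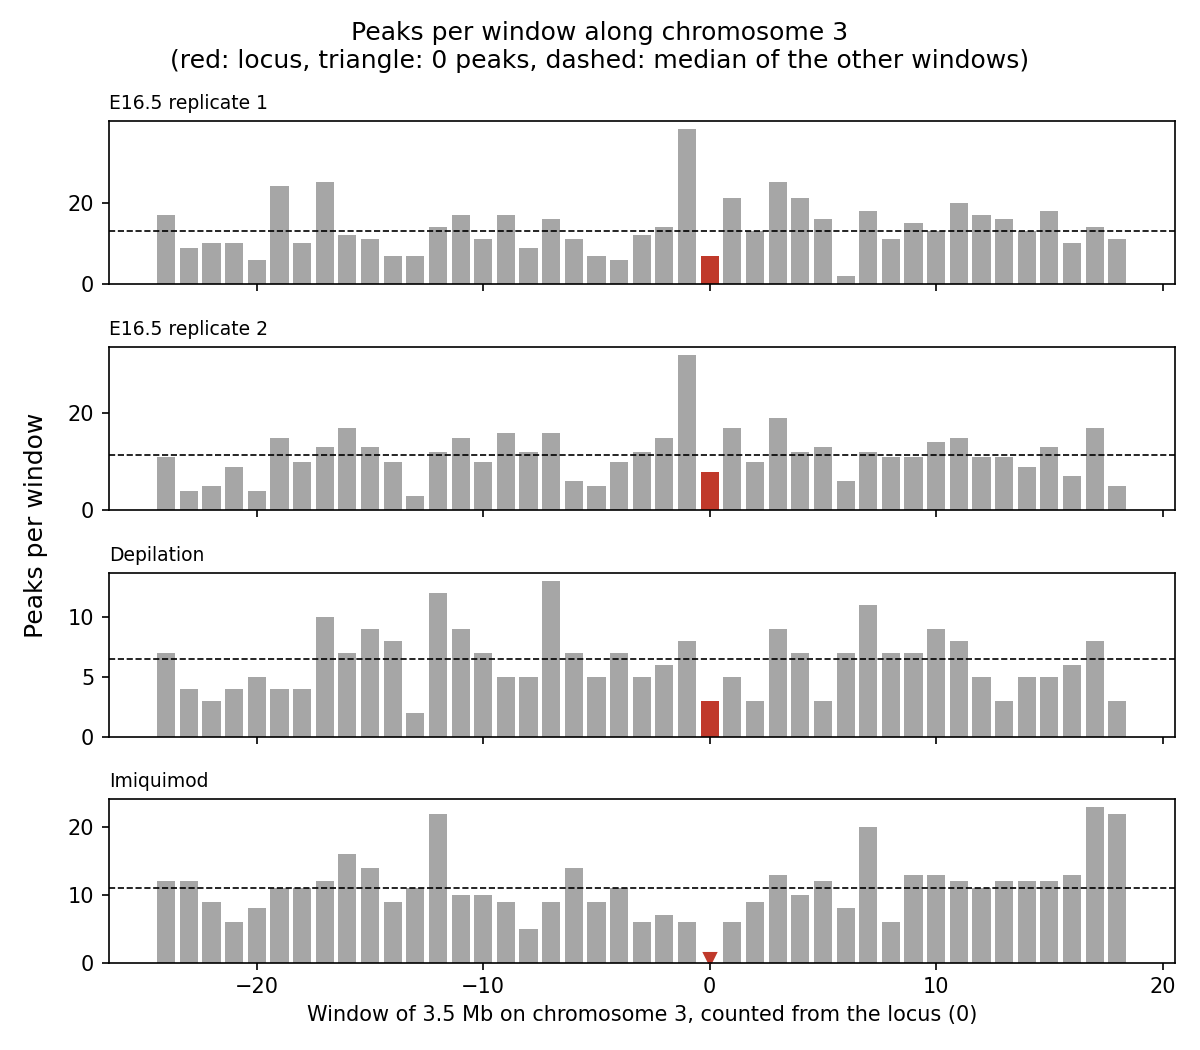
Peaks in each window of 3.5 Mb along chromosome 3, by list. The x axis counts windows from the locus at 0, the y axis is peaks per window, red marks the locus, the triangle marks its 0 imiquimod peaks and the dashed line is the median of the other windows. The window just before the locus is the highest bar of both E16.5 panels, and the locus is the only empty window in the imiquimod panel.

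The adjoining window on the side of lower coordinates was the richest on the chromosome in both E16.5 lists. It held 38 replicate 1 and 32 replicate 2 peaks, the highest counts of the 42, and 8 depilation and 6 imiquimod peaks. The next window on the other side held 21, 17, 5 and 6 in the same order. Set against these 2 neighbours alone, a comparison chosen after seeing the data, the density ratio was 0.237 (0.0914 to 0.520) in replicate 1, 0.327 (0.134 to 0.695) in replicate 2, 0.462 (0.0844 to 1.68) after depilation and 0 (up to 0.720) after imiquimod.

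The peaks next to the window show where each list resumes. Just outside the lower edge, by 6.64 kb, replicate 1 had a peak at 90193003 to 90193713 (score 102.14), which replicate 2 shared. On the far side, replicate 1 resumed at 94167343 to 94168266, 468 kb from the edge, and replicate 2 at 94167552 to 94168130 within it. The imiquimod list resumed there too, at 94167458 to 94167950, with a score of 124.47, 56 tags, a fold enrichment of 6.17 and a false discovery rate of 3.16%, all as the authors' caller gave them. Its last peak before the window was at 89766979 to 89767273, with a score of 93.58, 37 tags, a fold of 7.03 and a false discovery rate of 3.44%. The list median was 29 tags at a fold of 6.65. Both flanking imiquimod peaks lay on an E16.5 replicate 2 peak, and the later one on a peak of each replicate.

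Between these 2 imiquimod peaks lay 4.40 Mb without a peak, which spans the whole window. It was the longest of 488 such stretches in that list on chromosome 3, whose median was 0.221 Mb, and 1 of 7930 on the autosomes was longer. In the tiling of all autosomes, no window fell wholly inside it. Stretches of at least the window's length numbered 5 on the autosomes in the imiquimod list, 4 in replicate 1, 9 in replicate 2 and 24 after depilation. The depilation list had stretches of 2.25 Mb before and 2.80 Mb after its 3 peaks, exceeded on chromosome 3 by 9 and 4 of 272.

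Some genes of the complex are near-identical copies, where reads of 50 cycles may not be placed uniquely. A shared run was 50 bases of a promoter also found at another place among the promoters of the table. Of the 62 genes of the complex with a promoter in the table, 8 (12.9%) had one, against 9.01% of all genes there. Of the Sprr genes these were Sprr2a1, Sprr2a2 and Sprr2a3, and of the Lce genes Lce1g and Lce1h. The other 3 were Gm36323, Gm35185 and Tdpoz8, which are outside the named gene families. The S100 and fused type genes had 0. Of the 17 listed genes, Sprr2a1 was the only one. The sources used here do not say how reads with several matches were treated, and the part of such copies in the low peak count was not tested.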

How the data were processed

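Each of the 4 Grhl3 libraries has 1 deposited peak list. Per the labels' protocols, 28 µg of sonicated chromatin was used per precipitation, with single-end sequencing of 50 cycles. The build is mm9, and Bowtie 0.12.7 and bedtools 2.11.2 are among the tools named, per the submitters' processing notes. The sources used here do not name the caller's settings or say how inputs were used. Per the file headers, the imiquimod list gives the authors' tag count, fold enrichment (a ratio over the caller's background) and false discovery rate in percent. The deposited peak score has no stated meaning, and its header in the imiquimod list is lost. Library depth is unknown.

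BED starts were raised by 1 bp. Membership was by peak centre. Peaks were shared at an overlap of 1 bp or more. Density ratios have Clopper-Pearson intervals. These were run on simulated counts of independent peaks, the model they assume, so their coverage for clustered peaks was not tested. No p-values were computed. Members and lists were chosen with earlier results of these data known. The rule for named regions took those in 3 or more lists, and the other 12 regions were added after their values were seen. Distances to genes were not computed, since no mm9 annotation was used. The software was scipy 1.17.1, pandas 2.3.3, numpy 2.4.6, matplotlib 3.10.9 and Python 3.11.15.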

Additional observations from a re-analysis of the deposited data

How the results depend on the processing

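The imiquimod window held 0 peaks under each of its alternatives. Since it was empty from the start, a subset of peaks or another background could only give 0. Only counting by any overlap with the window could have differed, and it gave 0 too. The ratios of peak density in the other lists turned above 1 with the 1000 best scoring peaks, at 2.23 for E16.5 replicate 1, 2.83 for replicate 2 and 2.17 after depilation, on 2 or 3 peaks in the window each. The other 20 of 23 alternative ratios were below 1, and the intervals of 7 of them lay wholly below 1. Of these, 4 were of the imiquimod list, and the others were replicate 1 against all other autosomes (0.416) and both replicates against the adjoining windows (0.237 and 0.327). The adjoining windows were chosen as background after seeing the data, and 1 of the imiquimod intervals uses them too. Imiquimod ratios could only be 0, so their intervals reflect the background count alone. The 23 are thus not independent checks. For the peaks of both E16.5 replicates together the ratio was 0.587 (0.328 to 0.973). Sites found in both replicates count there as separate peaks, so this interval cannot be taken at its stated level. The intervals of replicate 1 alone (0.199 to 1.03) and replicate 2 alone (0.300 to 1.39) include 1. Leaving out each replicate repeats the ratio of the other, 0.496 or 0.699. The 3 reproducible peaks gave 0.745 (0.152 to 2.21). With the better scoring 50% of each list, the window held 4 peaks in replicate 1 and 4 in replicate 2. Without 1 of the E16.5 replicates, merged regions numbered 8 to 10, those in 2 or more lists 1, and those in 3 or more 0, since fewer lists were merged. The last count could only be 0, as the imiquimod list has no peak in the window. Counting by any overlap with the window, or merging peaks within 500 bp, changed no count. No paired analysis was possible because only the E16.5 condition has replicates. The few peaks per list, and an unknown depth, limit every share.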
